A study of Mus musculus with 36 samples.

Results

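Organoids carrying the FOXA1 variant R219S in a doxycycline-inducible vector were compared at day 1 and at day 0. The 6 libraries titled for this construct at those days, 3 a day, were taken from 36 in all. The organoids are cultures of primary mouse prostate cells, and FOXA1 is expressed from a pCW vector as a fusion with the red fluorescent marker DsRED, joined by a 2A peptide. All 4 lines of the study carry such a vector, which holds no FOXA1 in the line called EV, the wild-type form in WT, and a mutant form in FE255del and in R219S, and the endogenous Foxa1 gene is not described as altered in any of them. The dose of doxycycline was 500 ng/mL. Only the deposited data's own names say that none was given at day 0. DsRED-positive cells of each line were seeded in triplicate and handled separately afterwards, so the replicates share 1 sorted population per construct. The p-values therefore measure the spread between parallel cultures. EV organoids at the same days, with 3 libraries a day, are the control for time and doxycycline, and the WT and FE255del organoids serve as the other FOXA1 lines. The mouse strain, sex and age are not given in the sources used here.

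FOXA1 is a forkhead transcription factor that opens chromatin and takes part in the androgen response of prostate luminal cells. The prostate epithelium has a basal layer, marked by Krt5, Krt14 and the regulator Trp63, and a luminal layer, marked by Krt8 and Krt18, that secretes the prostatic fluid. Forkhead proteins bind DNA through a winged helix, and the R219S substitution lies in that domain.

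The 6 libraries held 61476938 to 102385337 counts, and 20116 to 20864 genes had at least 1 count. The deepest library, replicate 2 of day 0, also had the lowest share of counts from mitochondrial genes, 1.32% beside 2.26% to 2.87% in the other 5. Levels below are CPM, counts scaled to library size, after TMM scaling. Changes are log2 values, day 1 against day 0, with a standard error derived from the test. A gene is said to have risen or fallen only where the adjusted p was under 0.05 (edgeR's quasi-likelihood F test, two-sided, Benjamini-Hochberg over 18176 genes).

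In R219S organoids 9474 of 18176 genes passed, which is 52.1% of those tested, with 4120 higher (22.7%) and 5354 lower (29.5%). Of these, 1267 were higher and 1219 lower by more than 2-fold (6.97% and 6.71% of the genes tested), and 415 were higher and 117 lower by more than 8-fold. The large changes were therefore more often rises, and the median change of all genes was -0.05. Scaling by total count instead moved the share of rises among the calls from 43% to 56%. The day 0 and day 1 libraries did not overlap in 59% of the genes tested in R219S and in 18.8% in EV. In EV organoids 260 genes passed (1.43%), 47 higher and 213 lower. That number rests on single libraries, ranged from 62 to 180 when each was left out, and was 658 with only the compared groups in the fit and 750 with DESeq2. The R219S and EV changes differed in 7153 genes (39.4%), 2924 more positive in R219S and 4229 more negative, and the share of the former went from 41% to 55% with total-count scaling. Leaving out day 0 replicate 2 left 8716 calls in R219S. For the R219S counts of each gene list below, the shares over all genes tested are 22.7% higher and 29.5% lower.

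Foxa1 itself (chr12:57540628-57546916, GRCm38, minus strand) was at 229, 222 and 235 CPM in the day 0 libraries and at 312, 303 and 311 CPM in the day 1 libraries. Every day 1 library lay above every day 0 library, and the change was 0.43 ± 0.06 (adjusted p = 1.7e-07). The EV change was -0.04 and did not pass, and the difference between the lines was 0.47 ± 0.08 (adjusted p = 2.6e-05). The corresponding change was 0.69 ± 0.06 in WT and 0.46 ± 0.06 in FE255del. The R219S change was smaller than that of WT (adjusted p = 0.013), and no difference from FE255del passed (adjusted p = 0.872). The sources used here do not name the species of the FOXA1 insert, so these counts may hold part of its RNA and are no measure of the protein. Of the related factors, Foxa2 was at 0.0774 and 0.218 CPM on the respective days (adjusted p = 0.057), and Foxa3 was too low to test.

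The largest rises were of genes without a count, or nearly so, at day 0. Igf1, which encodes insulin-like growth factor 1 (chr10:87858265-87937042), had no counts in the 3 day 0 libraries and 68.8, 73.7 and 68.9 CPM in the day 1 libraries. Cyp2c29, a cytochrome P450 best known from liver (chr19:39269405-39330713), had none at day 0 and 80.1, 94.5 and 90.2 CPM at day 1. Igfn1, an immunoglobulin-domain protein known from muscle, went from none to 24.5, 27.2 and 32.2 CPM, and Mobp, a myelin component of the brain, from none to 10.9, 12.4 and 10.8 CPM. The day 1 libraries of each gene were close to one another and far from day 0. With the day 0 group set to 3 counts over its 3 libraries, Cyp2c29 was at least 6514-fold higher, Igf1 at least 5199-fold, Igfn1 at least 2067-fold and Mobp at least 838-fold (adjusted p from 9.0e-15 to 8.2e-09). These bounds cover counting error only, and most low counts are even, as they would be if both reads of a pair were counted. With 3 read pairs, 6 counts, as the floor, an alternative chosen after the data were seen, the bounds are 3257-fold, 2599-fold, 1033-fold and 419-fold, and every bound given for other genes below is lower by the same factor. Of the named genes without a count at day 0, these 4 and Astn1, described below, had the highest day 1 levels, and their promoters are shown. Each is the 250 bases before the transcription start, 5′ to 3′ on the gene's strand, from RefSeq for GRCm38.p6: chr19:39286835-39287084 (plus strand), chr10:87860861-87861110 (plus), chr1:136006343-136006592 (minus), chr9:120149492-120149741 (plus) and chr1:158362054-158362303 (plus). For Cyp2c29 and Igf1 that start lies inside the GENCODE gene span given above, which begins further upstream, and for Mobp and Astn1 a short way inside it. Capitals mark the forkhead core TGTTT or its complement AAACA, and in Igfn1 the longer forkhead motif GTAAACA, read on the other strand as TGTTTAC. The Astn1 promoter holds none of these. Of the other 2 with an entry, Reg3b holds the core at 2 places and Otol1 at none.
Cyp2c29: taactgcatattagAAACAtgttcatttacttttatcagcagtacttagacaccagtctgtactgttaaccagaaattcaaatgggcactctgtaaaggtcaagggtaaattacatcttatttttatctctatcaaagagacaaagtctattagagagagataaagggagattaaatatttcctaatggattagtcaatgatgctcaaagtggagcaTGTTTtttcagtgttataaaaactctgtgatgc
Igf1: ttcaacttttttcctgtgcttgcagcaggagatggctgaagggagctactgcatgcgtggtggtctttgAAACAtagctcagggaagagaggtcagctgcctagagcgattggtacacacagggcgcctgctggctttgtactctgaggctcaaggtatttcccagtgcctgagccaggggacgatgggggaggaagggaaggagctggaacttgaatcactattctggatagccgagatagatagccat
Igfn1: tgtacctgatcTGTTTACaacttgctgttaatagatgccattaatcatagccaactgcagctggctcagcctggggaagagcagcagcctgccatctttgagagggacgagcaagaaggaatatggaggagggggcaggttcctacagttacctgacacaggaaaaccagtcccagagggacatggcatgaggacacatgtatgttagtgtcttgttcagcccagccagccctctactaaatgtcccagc
Mobp: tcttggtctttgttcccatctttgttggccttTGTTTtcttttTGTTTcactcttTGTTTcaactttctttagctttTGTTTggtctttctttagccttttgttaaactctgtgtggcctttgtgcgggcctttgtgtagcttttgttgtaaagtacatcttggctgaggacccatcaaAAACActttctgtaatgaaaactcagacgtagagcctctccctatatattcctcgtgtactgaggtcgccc
Astn1: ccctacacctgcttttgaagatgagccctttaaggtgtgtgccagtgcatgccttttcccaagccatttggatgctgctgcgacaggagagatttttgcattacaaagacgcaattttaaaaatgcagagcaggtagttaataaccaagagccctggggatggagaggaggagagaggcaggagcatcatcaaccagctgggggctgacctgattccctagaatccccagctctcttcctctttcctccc

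Promoters with an entry in that table were found for 7 of the 10 largest rises and for 11958 of all genes tested. The motif GTAAACA, on either strand, stood in 2.32% of the promoters of all tested genes, in 3.14% of 859 that were higher by more than 2-fold and in 2.87% of 733 that were lower by more than 2-fold. It stood in 4.33% (12) of 277 genes higher by more than 8-fold and in 3.29% (8) of 243 lower by more than 4-fold. Of all 27025 promoters in the table, 3.09% held it. A form with 1 base changed, GTAAAGA, gave 2.29%, 1.86%, 3.41%, 3.61%, 2.88% and 2.89% in the same order. The 5-base core TGTTT, which overlaps GTAAACA on its other strand, gave 35.5%, 43.4%, 43.1%, 53.8%, 44.0% and 46.8%. The core was thus about as common among the genes lower by more than 2-fold as among those higher by more than 2-fold. A match is a description of the letters and not a bound site.

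Others of the 10 largest rises had no counts at day 0 either. Astn1, a neuronal adhesion protein, was at 11, 9.46 and 10.3 CPM at day 1 (at least 757-fold higher), and Nptx1, a neuronal pentraxin, at 10.6, 9.15 and 8.63 CPM (at least 697-fold). Itgb3, an integrin subunit of platelets and osteoclasts, reached 7.14, 6.46 and 6.61 CPM (at least 497-fold). Otol1, a collagen-like protein of the inner ear, reached 5.97, 6.47 and 6.79 CPM (at least 473-fold), and Reg3b, a secreted antimicrobial lectin, 5.04, 6.23 and 6.16 CPM (at least 429-fold). The day 1 libraries of each were above 5 CPM, and none of the day 0 libraries held a read. Reg3b and Reg3g are near relatives, so their reads may be split between them.

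Rises from a low but measured level were as steep. Col14a1, a collagen that decorates fibrils, was at 0.0338, 0.188 and 0.0605 CPM at day 0 and 170.4, 170.1 and 174 CPM at day 1, a change of 10.61 ± 0.22 (adjusted p = 3.8e-26). The day 1 libraries were nearly equal. AU040972 went from 0.0338, 0.0417 and 0.0605 to 67, 68 and 78.7 CPM (10.57 ± 0.22), and Slc13a1, a sulfate transporter of kidney and gut, from 0.169, 0.219 and 0.333 to 50.3, 58.1 and 58.6 CPM (7.85 ± 0.20). Rdh12, a retinol dehydrogenase, had 1 library with reads at day 0 and 22.2, 25.8 and 22.2 CPM at day 1, a ratio of 2589-fold (95% exact conditional interval 716 to 21388). Pygo1, a Wnt pathway coactivator, rose to 17.7, 16.7 and 16.1 CPM, by 1863-fold (95% exact conditional interval 515 to 15390). Cps1, the first enzyme of the urea cycle, rose to 9.64, 11.6 and 10.2 CPM, by 1160-fold (95% exact conditional interval 321 to 9583). The groups of these genes were far apart. None of them passed in EV, and the R219S and EV changes differed (adjusted p from 8.0e-19 for Slc13a1 to 0.002 for Pygo1). For Igf1, Cyp2c29, Astn1, Mobp and Otol1, which are at 0 in EV at both days, the difference could not be assessed by this test. For Igfn1 and Reg3b, which are at 0 at day 0 in both lines, the test could not assess it either. At day 1 Igfn1 held 6030 counts over the R219S libraries and 8 over the EV libraries, and Reg3b 1252 and 2.

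**Figure D1:**
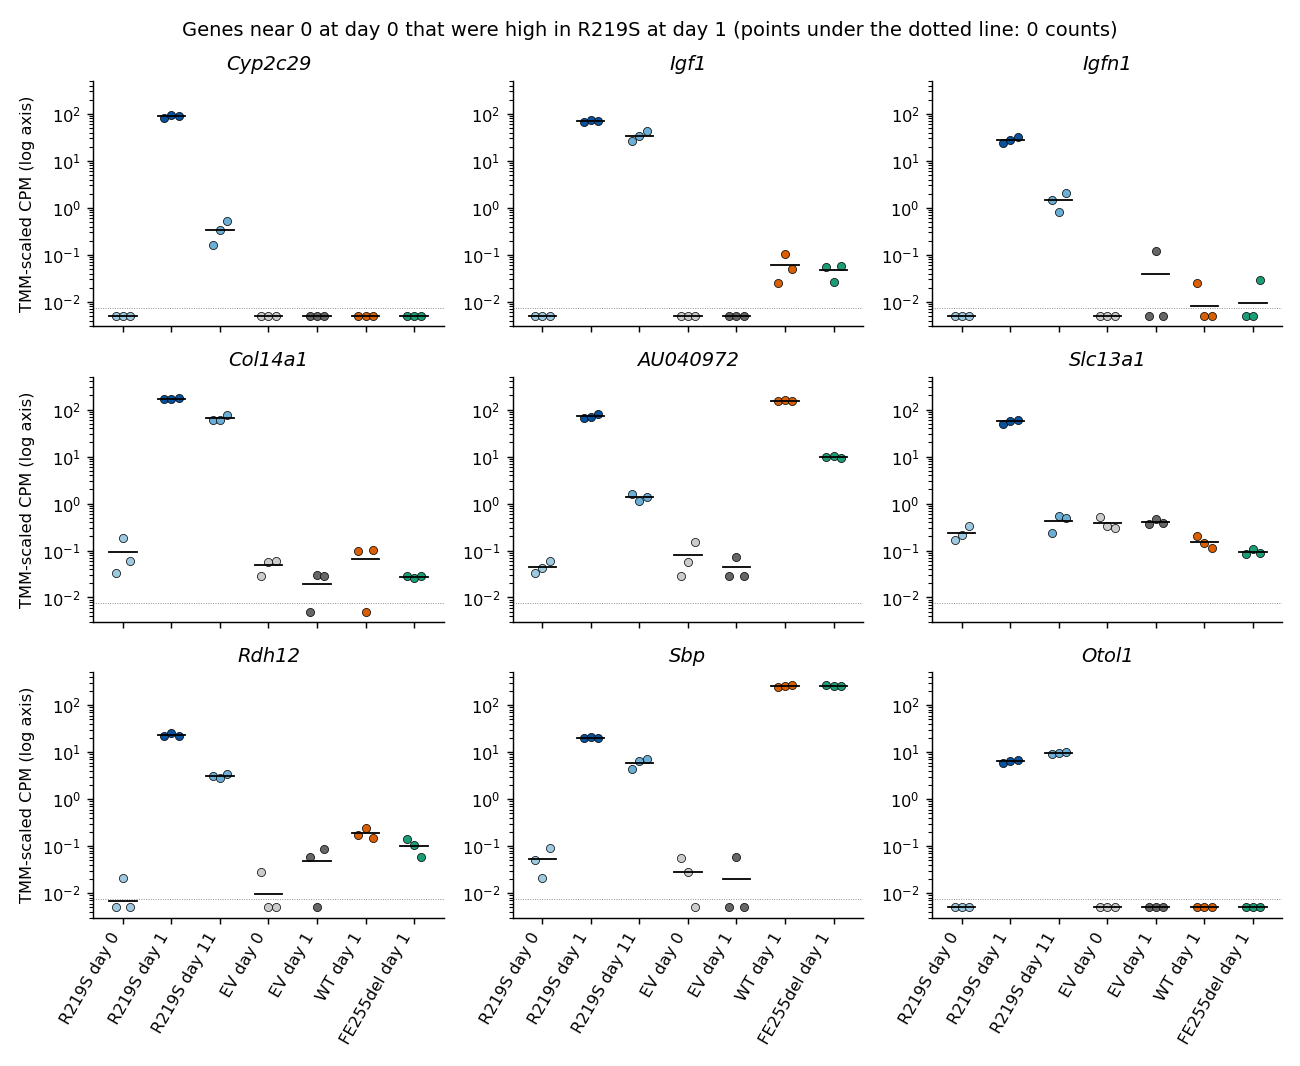
Levels of 9 genes in each library (points, TMM-scaled CPM on a log axis) and the mean of 3 libraries (line), by line and day. Each gene stands below 0.4 CPM in the R219S day 0 libraries and above 5 CPM in the R219S day 1 libraries, and at day 11 only Otol1 had a higher mean than at day 1.

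Day 11 was not tested, and its levels are given as values. Igf1 was at 34.4 CPM on average at day 11, Col14a1 at 64.8 CPM, Pygo1 at 10.2 CPM and Otol1 at 9.58 CPM. By contrast Cyp2c29 averaged 0.339 CPM, Slc13a1 0.424 CPM, Cps1 0.149 CPM and Nptx1 0.448 CPM. Counting genes with at most 3 counts over the day 0 libraries and a mean of at least 1 CPM at day 1, a definition set after the values were seen, gave 40 genes in R219S. Of these, 19 were at 1 CPM or more at day 11, and 9 were above their day 1 mean. Their median was 2.80 CPM at day 1 and 0.662 CPM at day 11. The same count was 71 in WT, 64 in FE255del and 0 in EV. The 40 genes shared 4 with the WT list (10% of the R219S list and 5.63% of the WT list) and 3 with the FE255del list (7.5% and 4.69%), and 36 were in neither. The limit of 3 counts lowers this overlap. Nptx1 and Itgb3, counted as in neither, held 4 to 8 counts at day 0 in WT and FE255del. At day 1 Nptx1 averaged 146 CPM in WT and 20.5 CPM in FE255del, and Itgb3 1.37 and 1.23 CPM. How many more of the 36 missed those lists in this way was not counted. No gene met the reverse definition in any line.

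Prostate secretory genes went both ways. Sbp, the androgen-regulated spermine-binding protein of mouse prostate, was at 0.0507, 0.0208 and 0.0907 CPM at day 0 and 20.1, 21 and 20.3 CPM at day 1 (8.64 ± 0.33), and its relative Sbpl rose from 0.0353 to 6.84 CPM (7.68 ± 0.34). All day 1 libraries were near 20 CPM for Sbp, whereas WT and FE255del averaged 257 and 257 CPM at day 1. The R219S change was the smaller one in both cases (adjusted p = 0.015 and 0.025). Pigr, the receptor that carries IgA across epithelium, fell from 52.6, 58.9 and 56 to 10.7, 9.33 and 10.3 CPM (-2.47 ± 0.16), and the matrix protease Mmp7 from 361, 372 and 398 to 108, 84.2 and 99.5 CPM (-1.95 ± 0.10). Both sets of libraries were apart. Of 15 tested members of the secretion list, 3 rose and 7 fell, with a median of -0.25. Pbsn, probasin, had no counts. Sbp and Sbpl are similar in sequence, so the authors' counting could split their reads.

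The largest falls among genes that averaged at least 2 CPM over the 6 libraries began from modest levels. Cxcl10, an interferon-induced chemokine, was at 5.0, 5.45 and 8.3 CPM at day 0 and 0.339, 0.507 and 0.408 CPM at day 1 (-3.89 ± 0.47). Smpd3, a neutral sphingomyelinase, was at 8.12, 8.49 and 7.53 and then 0.621, 0.648 and 0.585 CPM (-3.70 ± 0.15). Wnt7a, a Wnt ligand, was at 11.7, 11.4 and 11.5 and then 1.19, 0.818 and 0.898 CPM (-3.57 ± 0.19). In each case all day 1 libraries were below all day 0 libraries. Fam167a fell by 3.86 ± 0.27, the G-protein regulator Rgs16 by 3.54 ± 0.25 and the death-receptor inhibitor Faim2 by 3.53 ± 0.23. The peptidoglycan recognition proteins Pglyrp4 and Pglyrp3, which bind bacterial cell walls, fell by 3.75 ± 0.20 and 3.35 ± 0.24. Ankrd1, a YAP target, fell by 3.44 ± 0.22, the matrix protease Mmp24 by 3.41 ± 0.30 and the integrin Itga9 by 3.44 ± 0.27. The change of none of these genes passed in EV. At day 11 Cxcl10 averaged 10.8 CPM and Fam167a 8.9 CPM, whereas Smpd3 stood at 0.476 CPM and Wnt7a at 1.31 CPM.

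Basal and luminal genes both fell in R219S organoids, with a few clear exceptions. Krt14 was at 2316, 2296 and 2201 CPM at day 0 and 1108, 1105 and 1138 CPM at day 1 (-1.02 ± 0.07). Krt5 was at 4309, 4368 and 4244 and then 2961, 2945 and 2852 CPM (-0.56 ± 0.05). Trp63 went the other way, from 219.3, 240.3 and 218 to 304, 322 and 308 CPM (0.46 ± 0.07). None of the groups overlapped. Of 23 tested basal genes 3 rose and 15 fell, with a median of -0.42. Falls included Krt17 (-1.28 ± 0.08), the hemidesmosome integrin Itgb4 (-0.99 ± 0.06) and the laminin chain Lamb3 (-0.88 ± 0.06), and the rises beside Trp63 were the plakin Dst (0.76) and the integrin Itga3 (0.18).

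Among the luminal keratins, Krt7 was at 1788, 1776 and 1785 CPM at day 0 and 496, 479 and 478 CPM at day 1 (-1.88 ± 0.05). Krt18 was at 842, 884 and 833 and then 388, 385 and 379 CPM (-1.15 ± 0.04), and Krt8 at 441, 479.5 and 468 and then 256, 255 and 235 CPM (-0.90 ± 0.07). All 3 were lower in every day 1 library. Cd24a, a surface glycoprotein used to sort luminal cells, was at 717, 745 and 752 CPM at day 0 and 3575, 3468 and 3460.4 CPM at day 1 (2.25 ± 0.05), far apart. Of 21 luminal genes 4 rose, with Cd24a, Ly6a and Foxa1 among them, and 16 fell, with a median of -0.87. The Foxa1 counts, as said above, may hold part of the RNA of the insert. The falls included the tight junction gene Cldn4 (-1.55 ± 0.07), the ETS factor Elf3 (-1.15) and the stem cell marker Prom1 (-1.66). In EV the basal list had no call and the luminal list 1, with medians of -0.03 and -0.04. At day 11 Krt5, Krt14 and Trp63 averaged 6367, 2870.2 and 510.1 CPM, and Krt8, Krt18 and Krt7 averaged 179, 458 and 667 CPM, with no test of that day.

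**Figure D2:**
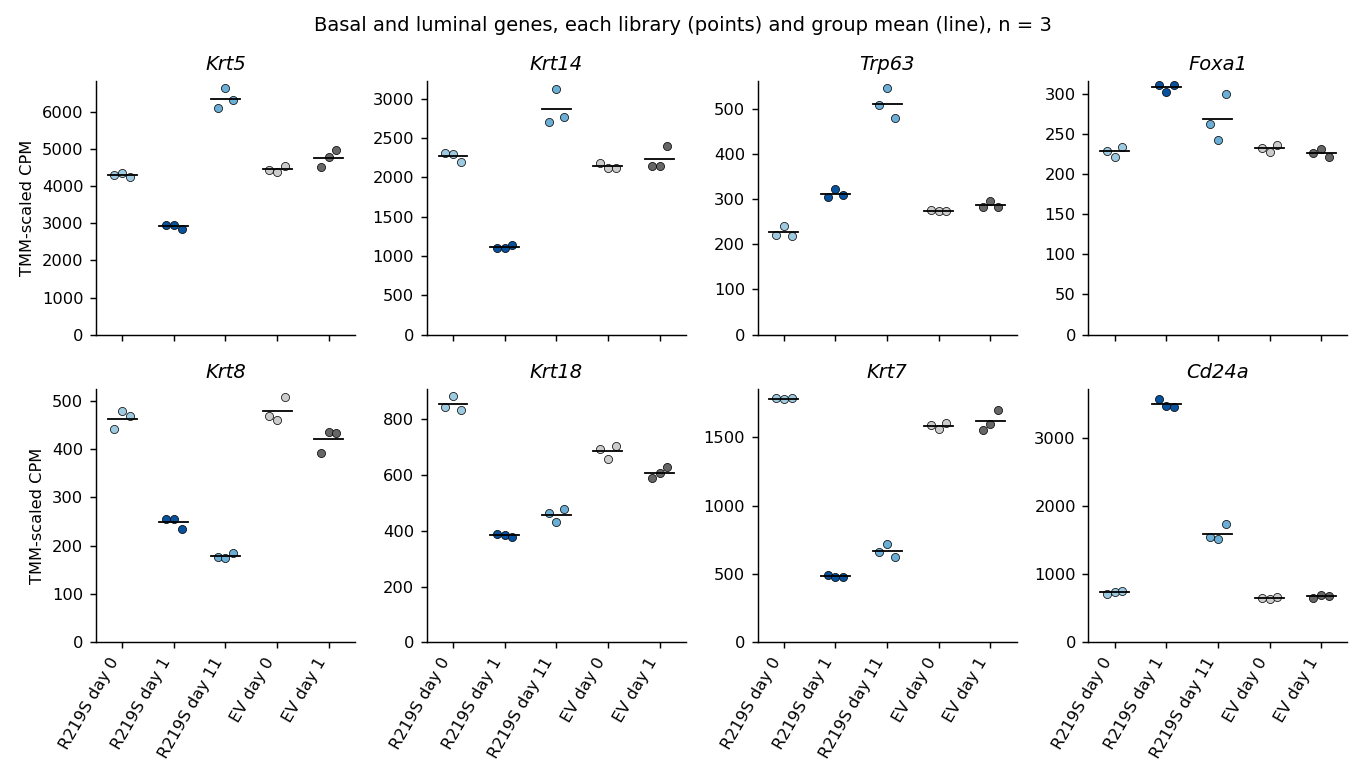
Levels of 8 basal and luminal genes (TMM-scaled CPM) in each library (points) with the mean of 3 libraries (line), for R219S at days 0, 1 and 11 and EV at days 0 and 1. Krt7 falls from about 1780 to 484 CPM and Cd24a rises from 738 to 3501 CPM on average between the R219S days, while the EV points stay near their day 0 levels.

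In these bulk libraries fewer cells of a type and less RNA per cell cannot be told apart. The epithelial markers Cldn4, Cldn7, Cdh1 and Epcam all fell, and their summed level went from 3244 to 3429 CPM over the day 0 libraries to 2330.0 to 2415 CPM over the day 1 libraries. Cdh1, E-cadherin, changed by -0.29 ± 0.04, and the Epcam change of -0.17 ± 0.06 no longer passed with total-count scaling. The markers of an epithelial culture, as labelled, were thus present in every library. The 5 endothelial markers together reached at most 1.03 CPM, the 6 neuroendocrine markers reached at most 1.17 CPM and, of the seminal vesicle proteins, Svs4, Svs5 and Svs6 had no counts, while Svs2 had some in 1 day 0 library (0.0338 CPM). The 5 urothelial markers summed to 4.23 to 4.88 CPM and then 1.8 to 2.22 CPM, with 3 falls, and the 5 neuronal and glial ones to 0.844 to 1.3 CPM and then 3.06 to 3.8 CPM, with 1 rise.

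Androgen response genes were split. Fkbp5, a chaperone of steroid receptors, was at 144, 155 and 153 CPM at day 0 and 274, 279.8 and 269 CPM at day 1 (0.87 ± 0.05), and every day 1 library lay above every day 0 library. Tmprss2, a serine protease, fell from 245, 235 and 247 to 159, 147 and 156 CPM (-0.65 ± 0.05), as did the retinaldehyde dehydrogenase Aldh1a3 (-2.44 ± 0.14) and the zinc-finger factor Zbtb16 (-1.39 ± 0.11). Of 25 androgen response genes 6 rose and 15 fell (median -0.52, and -0.01 in EV with 2 falls).

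Squamous and cornified envelope genes gave 18 falls and 8 rises among 30 (median -0.84, and -0.01 in EV). By the test of the difference, 3 of the 30 changes were more positive in R219S than in EV, 17 more negative and 10 not called. At most 3 of the 8 rises were thus told apart from EV by that test. The suprabasal protein Sbsn fell from 31.7, 29.4 and 33.1 to 5.87, 6.09 and 7.31 CPM (-2.29 ± 0.11), and the plakin Ppl from 151, 164 and 157 to 62.9, 62.2 and 59.7 CPM (-1.35 ± 0.05). Krt4, a keratin of stratified mucosa, fell by 1.88 ± 0.08 and the epidermal regulator Grhl3 by 1.38 ± 0.07. The day 1 libraries of all 4 lay below those of day 0. The involucrin gene Ivl (-2.04), the cross-linking enzyme Tgm1 (-1.50) and Krt16 (-2.06) fell as well. The rises included the desmosomal cadherins Dsg1a (2.84), Dsc1 (2.77) and Dsc2 (1.83), loricrin, Lor (1.59), and Krt10 (1.27). Of these, Dsg1a, Dsc1, Lor and Krt10 are known from the upper layers of stratified epithelium. The means of all 5 at day 1 were at most 7.40 CPM.

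Mesenchymal and matrix lists were split. Vim, the intermediate filament of mesenchymal cells, was at 4.39, 4.17 and 3.6 CPM at day 0 and 32.7, 38.8 and 31.6 CPM at day 1 (3.08 ± 0.16), well apart, and averaged 154 CPM at day 11. Of 25 mesenchymal transition genes 9 rose and 8 fell, with a median of 0.11 that became -0.12 with only the compared groups in the fit. Rises included the repressor Zeb2 (2.90), fibronectin, Fn1 (0.95), and the smooth muscle actin Acta2 (1.65), and falls the secreted protein Spp1 (-2.87 ± 0.17) and the matrix protein Sparc (-1.78). Of 43 collagen and matrix genes 14 rose and 15 fell (median 0.11, which also turned to -0.12 in that fit). Has3, a hyaluronan synthase, rose from 2.4, 1.76 and 2.09 to 33.6, 31.5 and 34 CPM (4.0 ± 0.13), and the basement membrane collagen Col4a5 from 36.1, 41.2 and 34.7 to 108, 109.5 and 108 CPM (1.54 ± 0.08). Col16a1 fell from 263, 247 and 227 to 71.1, 75.2 and 75.2 CPM (-1.73 ± 0.08), and the anchoring collagens Col17a1 (-0.67) and Col7a1 (-1.68) fell too. Of 7 fibroblast markers, Lum, Dcn and Col3a1 rose, and their summed level was 1.57 to 2.1 CPM at day 0 and 3.9 to 4.25 CPM at day 1. The 5 smooth muscle markers summed to 1.62 to 2.12 CPM and then 5.05 to 5.64 CPM, with Acta2 at 1.64 and 5.11 CPM on average. The part of such cells in the Vim and Col14a1 rises was not tested.

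Growth factor and receptor genes moved beside Igf1. The FGF receptors went in different directions: Fgfr3 fell from 99.8, 99.9 and 101 to 31.4, 33.8 and 31.1 CPM (-1.64 ± 0.07) and Fgfr2 from 92, 99.2 and 95.2 to 49.3, 49 and 49.5 CPM (-0.95 ± 0.04), whereas Fgfr1 rose from 3.9 to 11.6 CPM (1.57). Erbb2, a receptor tyrosine kinase, changed by -0.67 ± 0.04, the ligand Pdgfb by -1.96 ± 0.10 and the IGF-binding protein Igfbp5 by 2.08. Igf1r, the receptor for IGF1, was at 42.8 and 42.4 CPM and did not pass. Of 36 genes in this list 7 rose and 17 fell (median -0.29).

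Components and targets of the Wnt, Notch, BMP and Hippo pathways had more falls than rises in each list. Sfrp1, a secreted Wnt antagonist, rose from 15.5, 15.4 and 15.9 to 77.1, 74 and 71.5 CPM (2.25 ± 0.08), while the feedback gene Axin2 fell from 76, 79.9 and 81.8 to 42.4, 36.6 and 40.9 CPM (-0.99 ± 0.05) and the TCF factor Tcf7 by 1.11 ± 0.06. Lef1 rose from 0.169 to 2.07 CPM (3.64) and the receptor Lgr6 fell from 1.05 to 0.0836 CPM (-3.64). The Wnt response list had 4 rises and 16 falls among 28 (median -0.39, and 0.06 in EV with 1 rise). In the Notch list, 4 of 17 rose and 8 fell: the ubiquitin ligase Dtx4 fell from 103, 104 and 109 to 31.4, 29.6 and 29.9 CPM (-1.80 ± 0.04), Notch1 changed by -0.99 ± 0.07 and the effector Hes1 by 0.75 ± 0.04. Of 35 BMP and TGF-beta genes 7 rose and 21 fell (median -0.42). There the receptors Tgfbr1 (0.80 ± 0.05) and Tgfbr3 (1.60 ± 0.11) rose, and the ligand Tgfb2 (-1.55 ± 0.12) and the target Id3 (-2.95) fell. Of 25 YAP and TEAD targets 2 rose and 16 fell (median -0.31, and 3 falls in EV), Ccn1 from 81.6, 73.2 and 77.5 to 22.4, 19.3 and 20.8 CPM (-1.89 ± 0.09).

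Inflammatory and interferon genes fell together. Of 33 NF-kB response genes 28 fell and 1, the neutrophil chemokine Cxcl5 (0.47), rose (median -0.63, and -0.08 in EV with 1 fall). Tnfaip2 was at 388, 392 and 377 CPM at day 0 and 100, 93.6 and 91.5 CPM at day 1 (-2.02 ± 0.07), and the cytokine Lif at 144, 134 and 137 and then 62, 61.7 and 61.4 CPM (-1.16 ± 0.07). Both groups of libraries were apart. The chemokine Ccl2 (-2.29), the cytokine Il1a (-2.11) and the prostaglandin synthase Ptgs2 (-1.43) were among the further falls. Of 46 interferon response genes 37 fell and none rose (median -0.57). Oasl1, an antiviral protein, went from 6.94, 5.06 and 5.97 to 0.706, 1.06 and 0.871 CPM (-2.76 ± 0.19), the nucleotide kinase Cmpk2 from 6.16, 5.11 and 7.29 to 1.55, 1.55 and 2.16 CPM (-1.81 ± 0.19) and the nucleic acid sensor Zbp1 by -1.97 ± 0.25. The EV median of this list was -0.18 with no call. The difference between the lines passed for 18 of its genes, all more negative in R219S, and not for 28. Among all 18176 genes tested it passed for 7153 (39.4%), 4229 of them more negative in R219S. Among 33 immediate early genes 7 rose and 15 fell (median -0.07), with Jun at -1.14 ± 0.05, the ERK phosphatase Dusp6 at 0.97 ± 0.06 and Btg1 at 0.79 ± 0.04. In EV 5 of the 33 fell and none rose (median -0.14). By the test of the difference, 7 of these changes were more positive in R219S than in EV, 12 more negative and 14 not called. The 7 leukocyte markers summed to 3.94 to 4.49 CPM at day 0 and 1.95 to 2.42 CPM at day 1, with Cd68 at 3.85 and 1.98 CPM on average. Their part in the falls was not tested.

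Cell division genes fell in step. Of 55 G2 and M phase genes 53 fell and none rose, with a median of -0.57 beside -0.05 for all genes and 0.04 for the list in EV, where none was called. Mki67, the proliferation marker, went from 458, 571 and 469 to 302, 332 and 306 CPM (-0.67 ± 0.08), and the cytokinesis protein Anln from 287, 317 and 292 to 168, 168 and 159 CPM (-0.86 ± 0.07). Of 52 S phase genes 43 fell and 1 rose (median -0.32), among them the ribonucleotide reductase Rrm2 (-0.70 ± 0.08) and the helicase subunit Mcm6 (-0.40 ± 0.04). The p53 response list was split, with 12 rises and 9 falls among 33 (median 0.02). The rises were led by the death receptor Fas, from 7.02, 6.65 and 7.51 to 28.5, 29 and 29.2 CPM (2.04 ± 0.08), the reductase subunit Rrm2b, from 25.6, 27.9 and 25.7 to 71, 77.3 and 76.9 CPM (1.51 ± 0.06), and Trp53inp1 (1.28 ± 0.06). The cell cycle inhibitor Cdkn1a (-0.15) and the p53 ligase Mdm2 (-0.27) fell slightly.

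**Figure D3:**
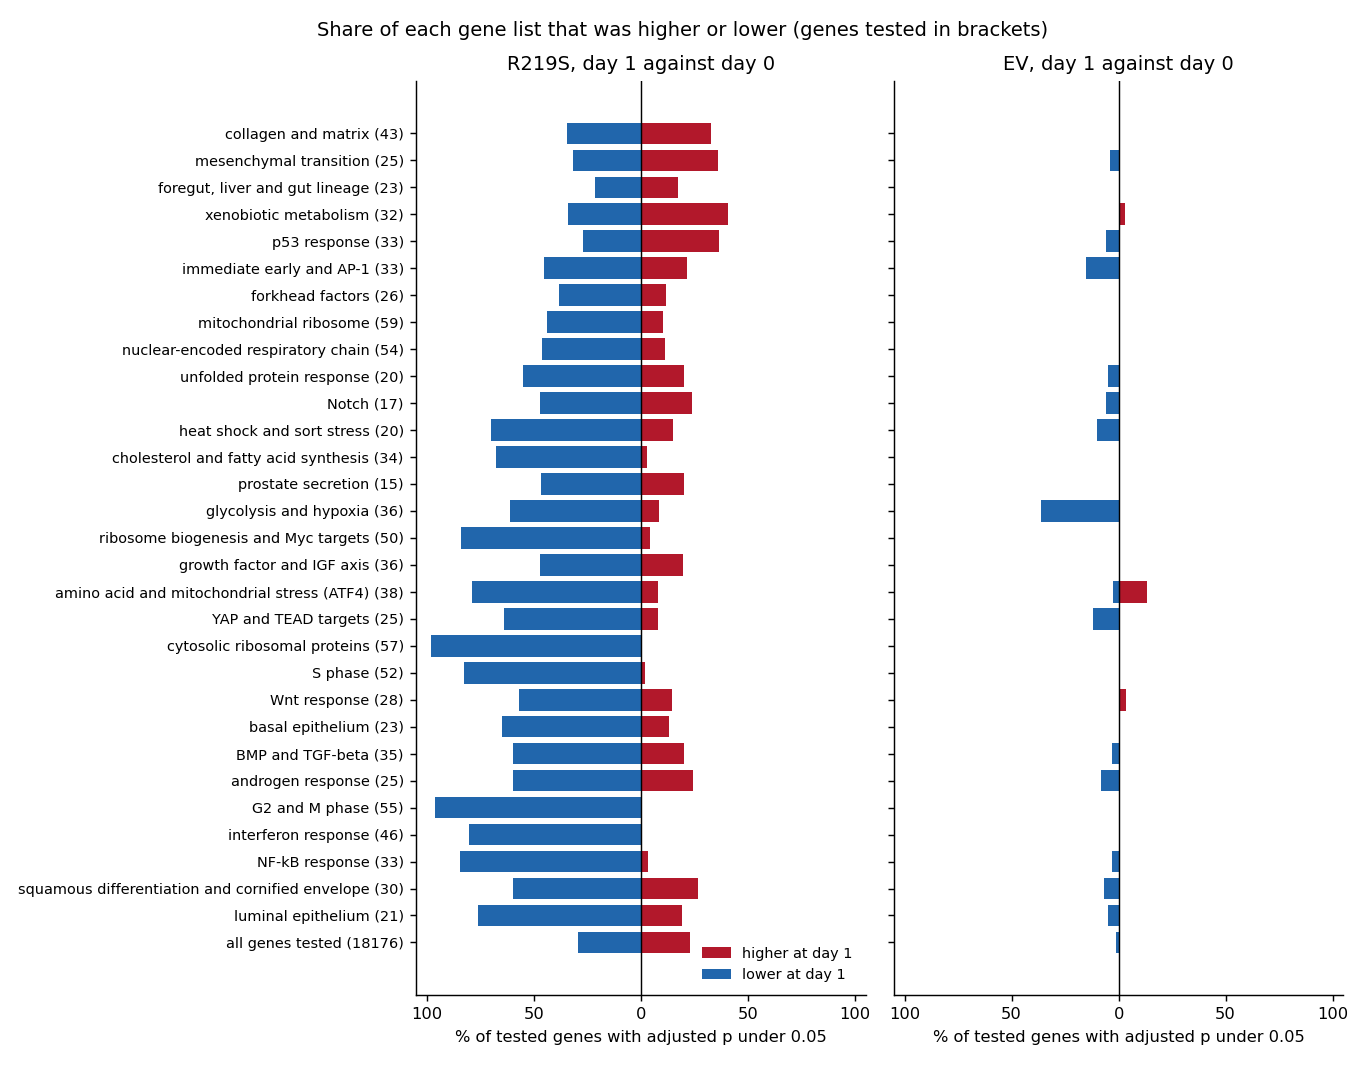
Share of the tested members of each gene list (number in brackets) that were higher (right) or lower (left) at day 1, with adjusted p under 0.05, in R219S and EV organoids. The falls in R219S reach 53 of 55 G2 and M phase genes and 56 of 57 ribosomal protein genes, beside none in EV for either list.

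Cytosolic ribosomal protein genes and ribosome biogenesis genes fell by small amounts, and the respiratory chain and mitochondrial ribosome lists were mixed. Of 57 cytosolic ribosomal protein genes 56 fell and none rose (median -0.32, and 51 falls with total-count scaling). Rps2 went from 1385, 1425 and 1431 to 956, 959.8 and 915 CPM (-0.58 ± 0.05) and Rpl14 from 639.6, 640.0 and 679 to 482, 464 and 467 CPM (-0.47 ± 0.05). Of 50 ribosome biogenesis genes and Myc targets 42 fell and 2 rose (median -0.27), with Myc itself at -0.40 ± 0.04 and the nucleolar protein Npm1 at -0.45 ± 0.04. Of 54 nuclear-encoded respiratory chain genes 25 fell and 6 rose (median -0.12), a split that became 12 and 12 with total-count scaling. The mitochondrial ribosome list gave 26 falls and 6 rises of 59 (median -0.12), and 12 and 13 with that scaling. Of 10 tested mitochondrially encoded genes 3 rose, mt-Nd2, mt-Cytb and mt-Nd4 (median 0.62). mt-Nd2 was at 1818, 1133 and 2081 CPM at day 0, where replicate 2 was lowest, and 2964, 2997 and 2907 CPM at day 1 (0.82 ± 0.17). The list median was 0.27 without that library and 0.34 in EV, and no member differed between the lines.

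Of 36 glycolysis and hypoxia genes 22 fell and 3 rose (median -0.26), and 13 of the 36 fell in EV (median -0.22). By the test of the difference, the R219S change was more positive than that of EV in 7 genes, more negative in 11 and not called in 18. The hexokinases Hk1 (-0.68 ± 0.04) and Hk2 (-0.64 ± 0.06) and the glucose transporter Slc2a1 (-0.47 ± 0.06) were among the falls. For Slc2a1 the difference from EV did not pass (adjusted p = 0.082). Of 34 cholesterol and fatty acid synthesis genes 23 fell and 1 rose (median -0.25). The rise was Me1, malic enzyme, from 61.8, 64.4 and 61.3 to 158, 169 and 168 CPM (1.4 ± 0.07), and the falls included the sterol regulator Srebf1 (-0.45 ± 0.04).

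Xenobiotic metabolism genes, apart from Cyp2c29, gave 12 rises and 11 falls among the other 31 (median of the whole list 0.03). Ugt2b34, a glucuronosyltransferase, rose from 0.388, 0.792 and 1.03 to 28.2, 24 and 22.8 CPM (5.05 ± 0.18) and averaged 210.2 CPM at day 11. Cyp2j6 rose from 21.1, 24.6 and 23 to 86.9, 97.8 and 94.7 CPM (2.02 ± 0.08), and the aryl hydrocarbon receptor target Tiparp from 50.5, 52.6 and 46.3 to 115, 118 and 120.2 CPM (1.24 ± 0.05). Cyp1a1, the classic target of that receptor, rose from 0.0987 to 1.84 CPM (4.19), whereas Cyp1b1 (-0.83) and the glutathione transferase Gsta3 (-2.06 ± 0.10) fell. Cyp2c29 and Gsta3 have close paralogs with which reads may be shared.

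Stress lists fell in the main, each with a few strong rises. Of 38 amino acid response (ATF4) genes 30 fell and 3 rose (median -0.31), whereas in EV 5 rose and 1 fell. Slc7a11, the cystine importer, rose from 68.7, 86.2 and 70 to 255, 249.5 and 240.2 CPM (1.73 ± 0.11), and the chromatin protein Nupr1 fell by 1.25 ± 0.08. Of 20 unfolded protein response genes 4 rose and 11 fell, which became 6 and 6 with total-count scaling. The rises were Sel1l, a part of the machinery that removes misfolded proteins from the endoplasmic reticulum, from 127, 141 and 126 to 299.7, 311 and 316 CPM (1.23 ± 0.04), Dnajb9 (0.99 ± 0.07), the regulator Xbp1 (0.62 ± 0.04) and Pdia3 (0.54 ± 0.05). Of 20 heat shock genes 14 fell and 3 rose, with Dnajb4 at 1.19 ± 0.04 and Hspa1b at -0.75 ± 0.08, the latter nearly identical to Hspa1a. Among 26 forkhead genes 3 rose and 10 fell, where 22.7% of all genes tested rose and 29.5% fell. Foxn1, a regulator of thymus and hair, fell from 18.5, 17.2 and 19.6 to 2.33, 1.86 and 2.08 CPM (-3.14 ± 0.15), and Foxc1 by 1.05 ± 0.06. Of 23 foregut, liver and gut lineage genes 4 rose and 5 fell, both below those shares of all genes. The trefoil factor Tff1 rose from 0.169, 0.146 and 0.212 to 4.33, 4.16 and 5.88 CPM (4.78 ± 0.36), while the intestinal regulator Cdx2 (-1.15 ± 0.13) and the progenitor factor Sox9 (-0.42 ± 0.06) fell.

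The R219S changes were then set beside those of the other FOXA1 lines, which share no library with them. Of the 4120 genes that rose in R219S, 57.0% rose and 14.6% fell in WT, where 28.9% of all genes rose and 30.2% fell. Of the 5354 that fell, 63.0% fell and 13.2% rose in WT. For FE255del, where 25% of all genes rose and 28.3% fell, 48.1% of the R219S rises rose and 17.4% fell, and 57.8% of the R219S falls fell and 12.4% rose. Genes that went opposite ways in R219S and WT numbered 602 and 708 by direction. The R219S change differed from that of WT in 7252 genes (39.9%) and from that of FE255del in 6834 (37.6%). Both differences use the same R219S libraries. Across the 11710 genes that averaged 2 CPM or more over the 24 libraries of both days, Pearson's r between the changes was 0.420 with WT, 0.353 with FE255del and 0.196 with EV, as a description of genes that are not independent replicates.

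**Figure D4:**
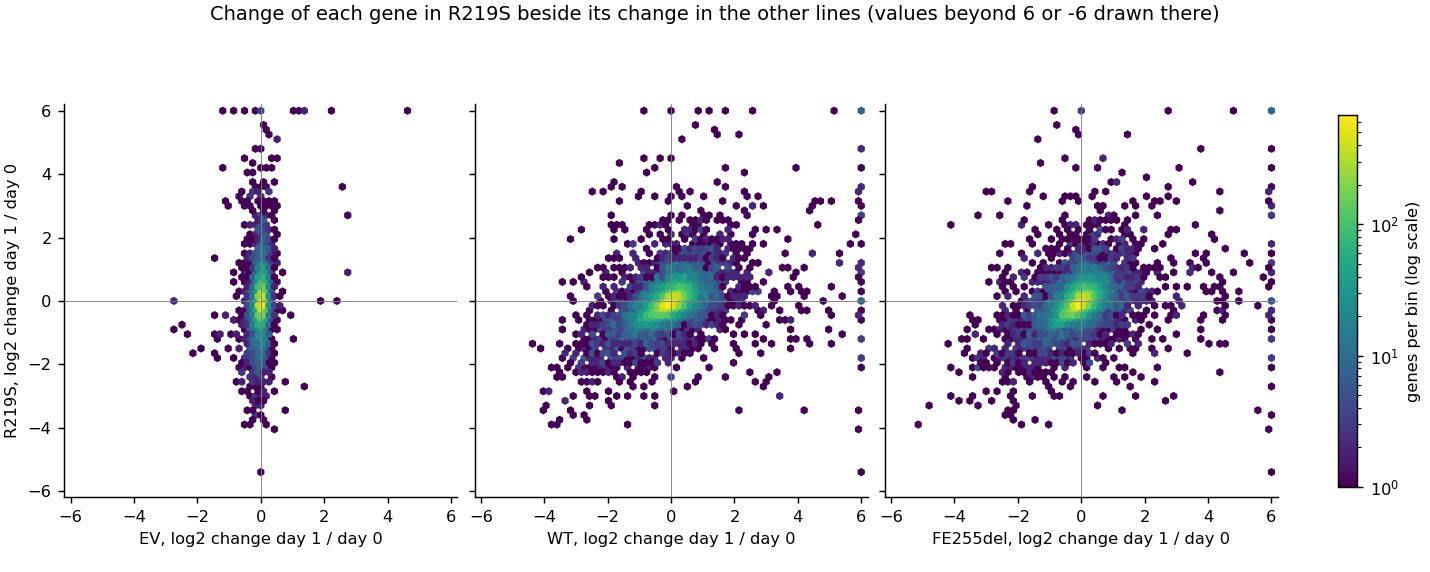
Each panel sets the log2 change of R219S (vertical) against that of EV, WT or FE255del (horizontal) for the 11710 genes that averaged 2 CPM or more, in bins coloured by the number of genes. The EV changes are narrow (r = 0.196), and the changes of WT and FE255del spread with those of R219S (r = 0.420 and 0.353) with genes in all 4 quadrants.

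Some named genes changed in opposite directions in R219S and in WT or FE255del. They are not among the genes named for the largest differences from those lines. Tmprss2 changed by -0.65 in R219S and by 0.99 in WT and 1.30 in FE255del (adjusted p of the differences 1.5e-19 and 1.7e-21). Fkbp5 had the reverse pattern, 0.87 beside -0.84 and -1.17 (4.7e-19 and 5.9e-21), as did Trp63, 0.46 beside -0.83 and -0.97 (1.6e-13 and 1.1e-14). All 9 of these changes passed in their own line. Itga9 fell in R219S and changed by 2.16 in WT, and Sfrp1 changed by 2.25 in R219S and -0.73 in WT.

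Several of the genes that rose from near 0 had a more positive change in R219S than in the other lines. The Pygo1 change was higher by 9.74 ± 0.73 against WT, and that of Col14a1 by 8.82 ± 1.93 against WT and by 10.56 ± 1.74 against FE255del. Slc13a1 (8.64 ± 0.50 against FE255del) and the membrane protein Tmem45a2 (8.82 and 8.35) were similar. On the other side, the macrophage receptor Csf1r differed by -9.60 and -11.14, the decarboxylase Gadl1 by -8.77 and -10.51 and the urothelial plaque protein Upk3a by -7.63 and -9.00. In R219S these 3 genes stayed below 0.6 CPM in every library and fell, by 1.85, 2.02 and 3.45 on the log2 scale, whereas they rose by 7.75, 6.75 and 4.18 in WT. The R219S calls of Csf1r and Gadl1 were lost when single libraries were left out. BC049730 differed by -6.48 from WT, and Ccdc33 and the lipase Lpl by -8.08 and -7.72 from FE255del.

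Several lists had a different balance of changes in the other lines, shown here against the 3502 genes more positive and 3750 more negative in R219S than in WT among all tested, and 3394 and 3440 against FE255del. Of 54 nuclear-encoded respiratory chain genes 46 rose in WT and 47 in FE255del, beside 6 in R219S, and the R219S change was lower in 44 and 46 of them and higher in none. Of the ribosomal protein genes 13 fell in WT and 2 in FE255del, beside 56 in R219S, and the R219S change was lower in 44 and 53. Foregut and gut lineage genes rose in 12 of 23 cases in WT and in FE255del, beside 4 in R219S. By the test of the difference, the R219S change was lower than that of WT in 7 of them, higher in 3 and not called in 13. Against FE255del it was lower in 6, higher in 3 and not called in 14. Other lists held more genes with a more positive change in R219S than with a more negative one. The basal list had medians of -1.03 in WT, -1.09 in FE255del and -0.42 in R219S, where the change was higher than in WT for 17 of 23 genes and lower for 2, and higher than in FE255del for 19 and lower for 2. For cholesterol and fatty acid synthesis, 27 of 34 changes were higher and 4 lower than in WT, and 20 and 4 than in FE255del. The collagen and matrix list gave 20 higher and 3 lower of 43 against WT, and 19 and 3 against FE255del. The G2 and M phase list had medians of -0.80 in WT, -0.64 in FE255del and -0.57 in R219S. Against WT 29 of its 55 changes were higher in R219S and 1 lower, and against FE255del 9 and 1. For the S phase list these were 32 and 1 of 52, and 12 and 2.

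**Figure D5:**
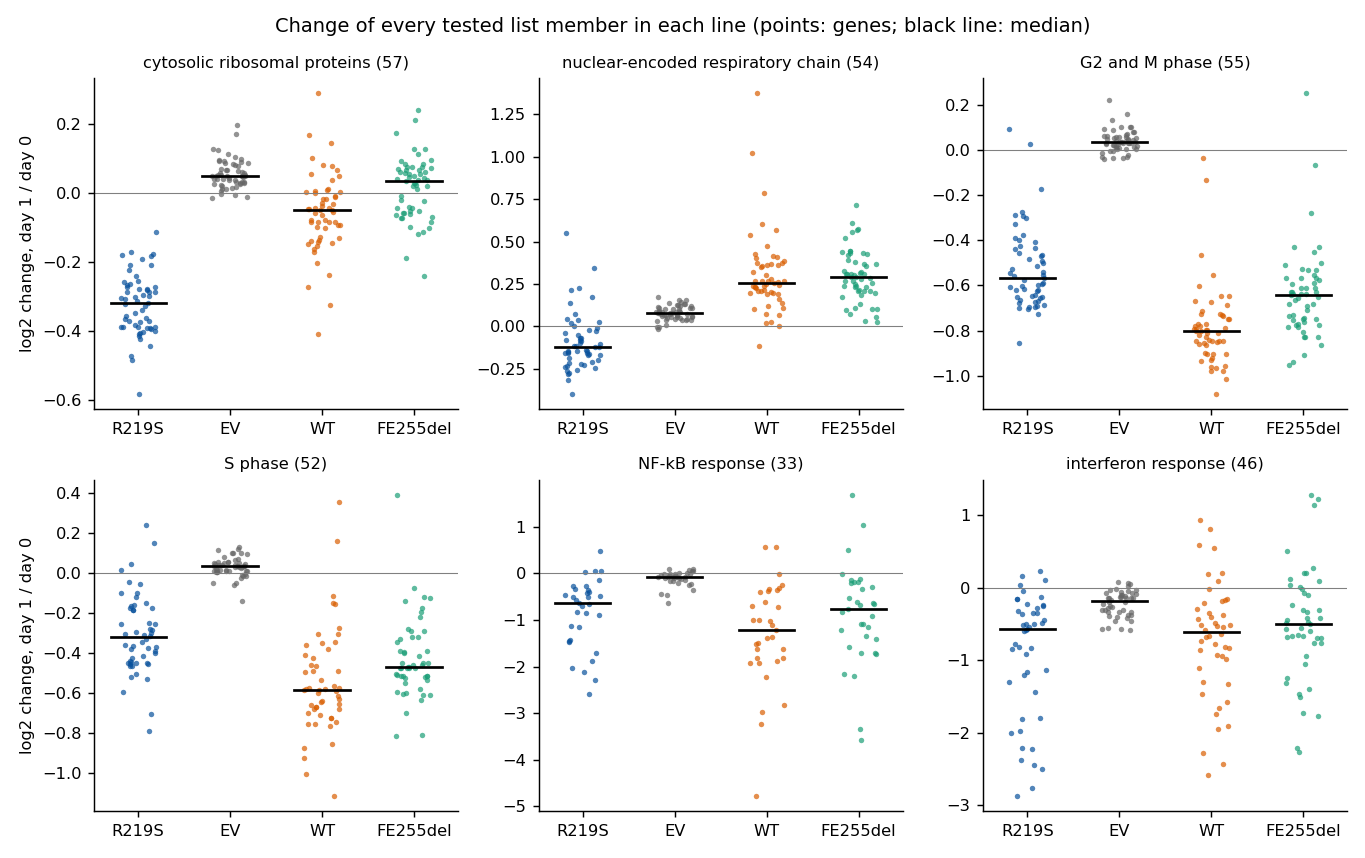
Log2 change from day 0 to day 1 of every tested member (points) of 6 gene lists in the 4 lines, with the list median (black line) and the number of genes in brackets. The ribosomal protein median is -0.32 in R219S and between -0.05 and 0.05 in the other lines, and the respiratory chain median is -0.12 in R219S and 0.26 and 0.29 in WT and FE255del.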

How the data were processed

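RNA-seq was analysed from 36 libraries of 4 organoid lines at 3 time points, 3 libraries a group. The files deposited by the authors hold expected counts of 45232 genes a library, judged from the values, with 298311 values not written as whole numbers but within 3.0e-09 of one, and they were rounded. Per the submitters' processing notes, the tools were featureCounts 1.4.3 and STAR 2.4.2a, with mm10 as build and no roles given. The annotation release and the strand setting are not given in the sources used here, so overlapping and antisense genes cannot be told apart. Per the labels' protocols, polyadenylated RNA was prepared with the TruSeq stranded mRNA kit. Symbols and coordinates came from GENCODE M21 (GRCm38), which matched 44585 identifiers.

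Genes were filtered with filterByExpr in edgeR 4.0.16 (R 4.3.3) on 12 groups, leaving 18176. TMM factors ran from 0.938 to 1.08. Robust quasi-likelihood models with 12 group means used every library. The common dispersion corresponds to a biological coefficient of variation of 0.0695, and the prior had a median of 8.97 degrees of freedom. The day 1 against day 0 contrasts and 3 differences between them were tested by the two-sided F test with Benjamini-Hochberg adjustment and a threshold of 0.05. SEs are the absolute unshrunk log2 change divided by the square root of F. Groups at 0 were set to 3 counts for bounds, and ratios with 1 to 3 counts carry 95% exact conditional intervals. Low counts are mostly even (69.1% to 70.4% of values from 1 to 20), so both reads of a pair appear to be counted, and intervals are too narrow for that reason too.

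Named genes are a set of Foxa1, prostate markers and others, the 10 largest rises and falls with a mean of at least 2 CPM and no overlap, the largest differences from EV (8 each way) and from WT and FE255del (5 each way), and up to 4 members of smallest p in each list. Single list members outside this rule were picked after their values were seen. Predicted genes are left out, and a few genes of the rule and the lists are not reported here by name. The members and the 31 gene lists and 9 marker lists were chosen with earlier results of these data known. The procedure was tested on simulated counts. Alternatives were RLE and total-count scaling, no filter and a stricter filter, only the compared groups, DESeq2 1.42.0, a replicate term and each library left out.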

Additional observations from a re-analysis of the deposited data

Results flagged for a closer look

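The following changes differed between R219S and another line by the test of the difference itself (edgeR's quasi-likelihood F test, Benjamini-Hochberg adjusted). The number of such genes was 7153 against EV, 7252 against WT and 6834 against FE255del.

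Against EV, differences of log2 change were 0.47 for Foxa1, 0.40 for Trp63, -0.66 for Krt5, -1.08 for Krt14, -0.71 for Krt8, -0.98 for Krt18, -1.91 for Krt7 and 2.20 for Cd24a. Among androgen-related and secretory genes they were -0.71 for Tmprss2, 0.80 for Fkbp5 and 9.17 for Sbp. They were 3.67 for Vim, -0.21 for Cdh1 and -0.68 for Mki67. Large positive differences were 11.85 for Col14a1, 11.36 for AU040972 and 7.78 for Slc13a1. For genes with a group at or near 0 the adjusted p is given instead: 2.3e-03 for Nptx1, 1.7e-03 for Rdh12, 2.0e-03 for Pygo1 and 4.7e-06 for Cps1. Large negative differences were -3.42 for Cxcl10, -3.50 for Fam167a, -3.81 for Pglyrp4, -3.47 for Smpd3, -3.36 for Wnt7a, -3.32 for Rgs16, -3.38 for Faim2 and -3.31 for Pglyrp3.

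Against WT, positive differences were 8.82 for Col14a1 and 8.82 for Tmem45a2, and the adjusted p was 5.3e-05 for Mobp, 1.3e-12 for Pygo1 and 5.2e-05 for Cps1. Negative ones were -9.60 for Csf1r, -8.77 for Gadl1, -7.63 for Upk3a and -6.48 for BC049730, and Sbpl had an adjusted p of 1.8e-03. Against FE255del, positive differences were 10.56 for Col14a1, 8.64 for Slc13a1 and 8.35 for Tmem45a2, with an adjusted p of 5.1e-03 for Astn1 and 6.5e-03 for Cps1. The Astn1 result rests on 2 FE255del counts at day 0. That of Mobp against WT rests on 3 WT counts at day 0 and 2 at day 1. Against the remaining lines, which held no counts of these genes at day 0, the test could not assess Astn1 or Mobp. Negative ones were -11.14 for Csf1r, -10.51 for Gadl1, -9.00 for Upk3a, -8.08 for Ccdc33 and -7.72 for Lpl. The calls of Csf1r, Gadl1 and BC049730 within R219S were each lost under at least 1 alternative.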

How the results depend on the processing

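The number of genes called in R219S, 9474, was 8815 with DESeq2, 8802 with no filter, 7726 with a stricter filter, 9139 with only the compared groups in the fit, and 8620 to 9036 when each library was left out. The differences in change gave 6590 to 6981 genes against EV, 6745 to 7059 against WT and 6385 to 6603 against FE255del when a library was left out, and every other setting run kept these counts within 1.5 times. The EV count of 260 moved to 658 with only the compared groups in the fit and to 750 with DESeq2. It was 62 without EV day 1 replicate 2, 87 without day 0 replicate 1, 94 without day 1 replicate 1, 104 without day 0 replicate 2, 123 without day 1 replicate 3 and at most 180. The cause was not tested. With the replicate number as a block the counts were 9354 (R219S), 224 (EV), 7091, 7161 and 6779 (differences from EV, WT and FE255del). The numbers do not pair these samples: same-numbered R219S libraries of days 0 and 1 deviated with correlations of -0.2688, 0.0767 and 0.0505. Of 2388 values for 187 named genes, 2348 kept direction and call, 30 lost the call and 10 gained it, and none reversed. Of 415 list values 81 moved. A floor of 6 counts in place of 3, chosen after the data were seen, lowered the bounds of genes at 0 as given above.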
